A study of Mus musculus with 9 samples.

Results

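This account describes the genes of the mouse major histocompatibility complex (MHC), named H2 in the mouse, and of the machinery that supplies their peptides, in regulatory T cells (Treg cells), a CD4 lineage that is marked by Foxp3. The members were chosen by name: every gene row whose symbol starts with H2-, together with B2m, Tap1, Tap2, Tapbp, Psmb8, Psmb9, Psmb10, Nlrc5, Ciita and Cd74, in all 52 of 34092 gene rows. By role, 31 are class I chains (the light chain B2m included), 7 supply peptides to class I or activate its genes, 12 are class II chains or their helpers, and 2, H2-Ke2 and H2-Ke6, carry an H2 symbol without being MHC chains. The samples are unstimulated Treg cells, isolated ex vivo by sorting from mice of genotype Foxp3gfp (WT) or Foxp3deltaCNS2-gfp (CNS2KO); both groups carry the green fluorescent Foxp3 reporter, and CNS2KO mice lack CNS2, a conserved noncoding element within the Foxp3 gene. The labels name 6 WT and 3 CNS2KO samples by number, and give no age, sex, strain or H2 haplotype. The columns for number 407, which both genotypes share, hold identical values, so 5 WT and 2 CNS2KO libraries were compared. Whether each sample is its own animal is not in the labels; p-values thus reflect sample-to-sample spread, part of which may be technical.

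Class I molecules show peptides from inside the cell to CD8 T cells, on nearly all nucleated cells. The proteasome cuts the peptides, with Psmb8, Psmb9 and Psmb10 as the subunits of its immune form; the Tap1 and Tap2 transporter moves them into the endoplasmic reticulum; tapasin (Tapbp) helps load them onto heavy chains paired with B2m; and Nlrc5 activates the genes. Class II molecules show peptides from taken-up proteins to CD4 T cells and belong chiefly to B cells, dendritic cells and macrophages. The invariant chain Cd74 guards their groove, H2-DM loads peptide, H2-O restrains H2-DM, and Ciita activates the genes. Mouse T cells are known for little class II RNA of their own, and B cells carried through a sort are a known source of such reads.

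The promoters of 6 members are shown because they carry the letters that class I and class II genes have in common, with the most highly read chains beside class II genes of low and of steady level. They are the 200 bases before the start of transcription, from RefSeq (GRCm38.p6, not the mm9 build that the submitters' processing notes name), 5′ to 3′ on the gene's strand. Capitals mark the motifs searched on both strands, which are CCAAT, GAAANNGAA and GGGGATTCC; a match on the opposite strand appears as its reverse complement.
H2-K1, chr17:34000348-34000547, minus strand: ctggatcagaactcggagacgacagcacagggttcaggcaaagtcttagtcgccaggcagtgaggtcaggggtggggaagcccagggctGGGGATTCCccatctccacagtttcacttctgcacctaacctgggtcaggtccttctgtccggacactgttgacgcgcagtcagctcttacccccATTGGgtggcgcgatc
H2-D1, chr17:35262894-35263093, plus strand: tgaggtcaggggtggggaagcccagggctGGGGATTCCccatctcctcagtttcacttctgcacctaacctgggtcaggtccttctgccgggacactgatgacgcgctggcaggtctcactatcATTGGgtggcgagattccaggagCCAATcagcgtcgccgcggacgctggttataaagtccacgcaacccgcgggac
B2m, chr2:122147487-122147686, plus strand: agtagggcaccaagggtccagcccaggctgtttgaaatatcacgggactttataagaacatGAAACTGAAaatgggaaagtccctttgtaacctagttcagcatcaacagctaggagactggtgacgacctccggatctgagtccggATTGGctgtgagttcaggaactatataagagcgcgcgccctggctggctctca
H2-Aa, chr17:34287824-34288023, minus strand: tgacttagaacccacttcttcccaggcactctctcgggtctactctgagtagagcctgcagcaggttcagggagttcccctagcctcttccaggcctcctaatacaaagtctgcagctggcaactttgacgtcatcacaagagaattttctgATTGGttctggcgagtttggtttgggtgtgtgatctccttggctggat
H2-Eb1, chr17:34305667-34305866, plus strand: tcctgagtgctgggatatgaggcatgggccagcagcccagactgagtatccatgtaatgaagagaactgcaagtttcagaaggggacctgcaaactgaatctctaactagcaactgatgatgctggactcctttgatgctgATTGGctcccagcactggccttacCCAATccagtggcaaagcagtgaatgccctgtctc
H2-Ob, chr17:34238705-34238904, plus strand: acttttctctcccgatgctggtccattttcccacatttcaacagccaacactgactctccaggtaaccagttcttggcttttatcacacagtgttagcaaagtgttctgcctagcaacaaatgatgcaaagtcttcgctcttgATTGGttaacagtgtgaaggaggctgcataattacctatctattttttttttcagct
In windows from 250 bases before to 50 after the start, CCAAT occurred in 22 of 25 class I windows (88%), in 8 of 9 class II windows (88.9%) and in 3 of 5 of the peptide supply genes (60%), against 37.4% of all 32841 windows. GGGGATTCC occurred in 5 of 25 class I windows (20%), those of H2-K1, H2-D1, H2-Q6 and H2-Q7, in 0 of 9 class II windows and in 0.25% of all windows. GAAANNGAA occurred in 3 class I windows (12%), those of B2m, H2-T23 and H2-T22, against 8.56% of all. The windows of 37 of 52 members were matched by symbol, H2-K1, H2-M9 and H2-DMa have 2 each, and the H2-K1, H2-D1 and H2-Q chains are related copies. A match describes letters and is not a site in use.

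Reads on genes ranged from 16557424 to 21836578 per library, 22% to 23.7% of all reads counted. The largest share, 47.7% to 54.3%, was listed as lying on no feature of the gene models. A further 14.7% to 19.7% aligned to more than 1 place and were assigned to no gene, which bears on class I genes with near-identical copies. Treg cell markers were read in all 7 libraries: Foxp3 stood at 410.0 to 606 CPM (counts scaled to a fixed total of gene reads per library), Cd4 at 535 to 754 CPM and Cd3e, a part of the T cell receptor complex, at 538 to 803 CPM. A filter on low counts kept 14424 genes for testing, among them 37 of the 52 members. In bulk RNA of this kind, fewer cells of a type and less RNA per cell cannot be told apart.

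B2m and the classical heavy chains were among the most highly read transcripts of these cells. All 31 class I members together took 1.54% to 1.92% of the gene reads. B2m, the light chain of every class I molecule, stood at 4759, 8979, 7158, 6622 and 8678 CPM in WT 398, 402, 405, 1032 and 1037, and at 8651 and 8740.5 CPM in CNS2KO 399 and 408. WT 398 was the lowest library, WT 402 lay above both CNS2KO libraries, WT 1037 lay between them, and WT 405 and WT 1032 lay below both. H2-D1, a classical heavy chain, stood at 3876, 4091, 3991, 3778 and 4316 CPM in WT 398, 402, 405, 1032 and 1037, and at 4397 and 3887 CPM in CNS2KO 399 and 408. The highest and the lowest library differed only 1.16-fold. H2-K1, the other classical heavy chain, stood at 3705, 4005, 3423, 3112 and 3788 CPM in WT 398, 402, 405, 1032 and 1037, and at 4214 and 3453 CPM in CNS2KO 399 and 408. For both heavy chains CNS2KO 399 was the highest library and CNS2KO 408 lay inside the WT range.

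**Figure D1:**
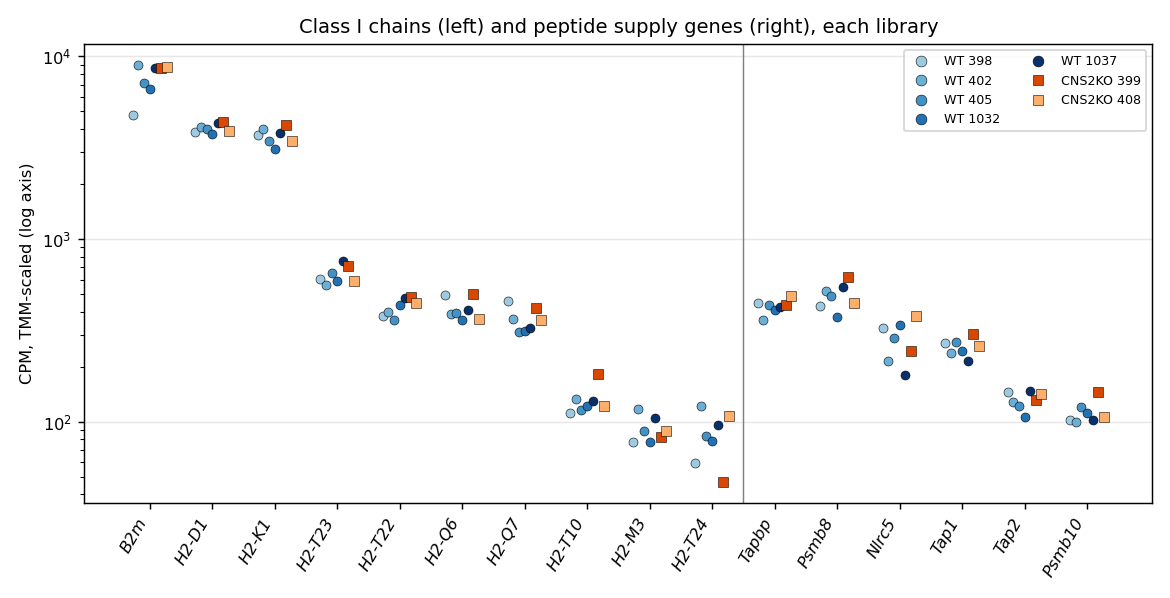
Level of 10 class I members (left of the line) and 6 peptide supply genes (right) in each library, in TMM-scaled CPM on a log axis; circles are WT and squares CNS2KO libraries. B2m spreads from 4759 to 8979 CPM, H2-D1 only from 3778 to 4397 CPM, and the lowest point of H2-T24 is CNS2KO 399.

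Per kilobase of exon, on lengths from GENCODE M21 (GRCm38) that 12922 of the 14424 tested genes matched by symbol, B2m was first, at 8418 ± 1983 CPM per kilobase in WT (SD, n = 5). H2-D1 ranked 14 at 1555 ± 80.4 and H2-K1 ranked 21 at 1228 ± 118. The non-classical chain H2-T23, which makes Qa-1 and is a ligand of the receptors CD94 and NKG2A, ranked 217 at 219 ± 27.5 CPM per kilobase. H2-Q6 ranked 240, H2-T22 ranked 403 and H2-Q7, which encodes the Qa-2 antigen, ranked 617. The class II chain H2-Aa ranked 5785, at 6.06 ± 1.67 CPM per kilobase. The gene models the authors counted on may differ in length.

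Among the non-classical class I chains, H2-T23 had a WT range of 559 to 762 CPM, with 713 in CNS2KO 399 and 588 in CNS2KO 408. H2-T22 had a WT range of 359 to 476 CPM and 481 in CNS2KO 399 and 444 in CNS2KO 408. For H2-Q6 the WT range was 359 to 491 CPM, with 501 in CNS2KO 399 and 364 in CNS2KO 408, and for H2-Q7 it was 309 to 458 CPM, with 419 in CNS2KO 399 and 359 in CNS2KO 408. CNS2KO 399 lay just above the WT range of H2-T22 and H2-Q6 and inside that of H2-T23 and H2-Q7. H2-M3, which presents N-formyl peptides of bacteria, stood at 77.0 to 117 CPM in WT, with 83.0 in CNS2KO 399 and 89.2 in CNS2KO 408. H2-T10 stood at 112 to 133 CPM in WT, with 181 in CNS2KO 399 and 123 in CNS2KO 408. H2-T24 had the widest range of these chains in proportion to its level, 2.63-fold from the lowest to the highest library. It stood at 59.7, 123, 83.3, 78.7 and 95.8 CPM in WT 398, 402, 405, 1032 and 1037, and at 46.7 and 107 CPM in CNS2KO 399 and 408. CNS2KO 399 was its lowest library and CNS2KO 408 lay inside the WT range, so the CNS2KO libraries fell on either side of the WT mean.

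The pseudogene H2-K2 and the chains H2-Q4 and H2-Q5 had means of 24.8, 36.0 and 31.7 CPM over the 7 libraries. H2-Q10, H2-Q1, H2-Q2, H2-Bl, H2-M5 and H2-T3 passed the filter at lower means, from 0.468 CPM in H2-M5 to 7.34 CPM in H2-Q10. The other 12 class I members did not pass, and H2-M1, H2-M10.1 and H2-M10.4 had 0 reads in every library, which allows up to 0.142 to 0.182 CPM per library (3 counts). The remaining 9, among them H2-M2, had 16 reads or fewer in every library. Of the 2 members that are not MHC chains, H2-Ke2, a prefoldin subunit, stood at 35.6 to 50.7 CPM in WT, with 42.3 in CNS2KO 399 and 36.7 in CNS2KO 408, and H2-Ke6, a hydroxysteroid dehydrogenase, at 0 to 2.12 CPM, with 0.0472 in CNS2KO 399 and 1.63 in CNS2KO 408.

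Copies of class I genes share sequence, and the reads of such genes cannot be assigned with equal ease. In GENCODE transcripts, 44.7% of the 50-base windows of H2-T22 and 41.6% of those of H2-T10 occur exactly in a transcript of another gene, with related copies among them. The share was 40.1% for H2-Q5, 34.9% for H2-Q7, 32.0% for H2-Q6 and 28.8% for H2-T23. It was 14.3% for H2-D1 and 8.79% for H2-K1, and 0% for B2m, H2-Aa, H2-Ab1, H2-Eb1, Cd74, Nlrc5, Psmb8 and Psmb10. Levels of the H2-Q and H2-T copies are therefore uncertain, and the read length is not given in the labels. The annotation used for these windows is that of C57BL/6J mice, and H2 genes differ between strains.

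Of the genes that supply peptide to class I, Tapbp, Tap1, Tap2 and Psmb10 varied less than 1.5-fold over the 7 libraries and Psmb8 varied 1.67-fold. Tapbp stood at 445, 362, 437, 408 and 426 CPM in WT 398, 402, 405, 1032 and 1037, and at 437 and 489.8 CPM in CNS2KO 399 and 408. Psmb8, an immunoproteasome subunit, stood at 433, 516, 485, 373 and 546 CPM in WT 398, 402, 405, 1032 and 1037, and at 623 and 448 CPM in CNS2KO 399 and 408. CNS2KO 408 was the highest library for Tapbp, and CNS2KO 399 was the highest for Psmb8. Tap1 stood at 269.7, 238, 274, 244 and 215 CPM in WT 398, 402, 405, 1032 and 1037, and at 303 and 259 CPM in CNS2KO 399 and 408. Tap2 stood at 106 to 147 CPM in WT, with 131 in CNS2KO 399 and 142 in CNS2KO 408, and Psmb10 at 99.5 to 120.0 CPM in WT, with 145 in CNS2KO 399 and 106 in CNS2KO 408. For Tap2 neither CNS2KO library left the WT range, while CNS2KO 399 lay above it for Tap1 and Psmb10.

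Nlrc5, the activator of class I genes, varied more between libraries than the classical heavy chains did. It stood at 328, 215, 288, 339 and 179 CPM in WT 398, 402, 405, 1032 and 1037, and at 244 and 378 CPM in CNS2KO 399 and 408. The lowest libraries were WT 1037 and WT 402, and the same libraries had the highest B2m levels among WT. H2-D1 and H2-K1 were also at their highest WT levels in WT 1037 and WT 402, respectively. The order of libraries by Nlrc5 was therefore not that of the heavy chains.

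Psmb9, the third subunit of the immunoproteasome, was listed at 0 reads in 6 of 7 libraries and at 2 reads in CNS2KO 408. Its neighbour Tap1, from which it is transcribed in the opposite direction, had 3674 to 6404 reads. None of the 50-base windows of Psmb9 (0%) occurs in another gene's GENCODE transcript. Which gene models were counted on is not known here, so the listing at 0 is given as a value of the table and not as a level of the gene.

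Class II chains were read at low and uneven levels. The 3 classical chains H2-Aa, H2-Ab1 and H2-Eb1 together took 0.00299% to 0.00883% of the gene reads. H2-Aa, the I-A alpha chain, stood at 22.9, 24.5, 24.9, 30.1 and 12.8 CPM in WT 398, 402, 405, 1032 and 1037, and at 58.3 and 21.4 CPM in CNS2KO 399 and 408. CNS2KO 399 had 1.94 times the next highest library, and CNS2KO 408 lay inside the WT range. H2-Ab1, the beta chain that pairs with it, stood at 10.7, 4.01, 7.83, 11.005 and 11.6 CPM in WT 398, 402, 405, 1032 and 1037, and at 14.8 and 9.18 CPM in CNS2KO 399 and 408. H2-Eb1, the I-E beta chain, stood at 9.31, 18.9, 6.26, 6.10 and 6.54 CPM in WT 398, 402, 405, 1032 and 1037, and at 18.0 and 8.03 CPM in CNS2KO 399 and 408, and WT 402 was its highest library. The alpha chain of I-E, listed as H2-Ea-ps, had 0 reads in every library, and H2-Eb2 had at most 7 reads.

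Among the helpers of class II, Cd74 and the H2-O chains were read more evenly. Cd74, the invariant chain, stood at 161, 131, 142, 143 and 146 CPM in WT 398, 402, 405, 1032 and 1037, and at 207 and 123 CPM in CNS2KO 399 and 408. All 5 WT libraries lay between the 2 CNS2KO libraries. H2-Ob, the beta chain of H2-O, stood at 164, 215, 178, 175 and 154 CPM in WT 398, 402, 405, 1032 and 1037, and at 141 and 173 CPM in CNS2KO 399 and 408. CNS2KO 399, the highest library for H2-Aa and Cd74, was the lowest for H2-Ob. H2-Oa, the alpha chain of H2-O, stood at 12.030 to 14.8 CPM in WT, with 19.9 in CNS2KO 399 and 14.5 in CNS2KO 408. H2-DMa stood at 32.7 to 53.9 CPM in WT, with 53.9 in CNS2KO 399 and 41.1 in CNS2KO 408. Its partners H2-DMb1 and H2-DMb2 share 27.2% and 29.5% of their windows with other genes and had means of 1.48 and 3.79 CPM. Ciita, the activator, had 2 to 49 reads per library, or 0.108 to 2.49 CPM. The fewest Ciita reads were in WT 1032 (2 reads) and WT 1037 (8 reads). WT 1032 was the lowest library for H2-Eb1, H2-DMa, H2-DMb2 and H2-Oa. It was also the highest library for H2-DMb1 (71 reads) and the highest WT library for H2-Aa. WT 1037 was the lowest for H2-Aa and the highest WT library for H2-Ab1. The lowest library was WT 402 for H2-Ab1 and H2-DMb1, CNS2KO 408 for Cd74 and CNS2KO 399 for H2-Ob.

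**Figure D2:**
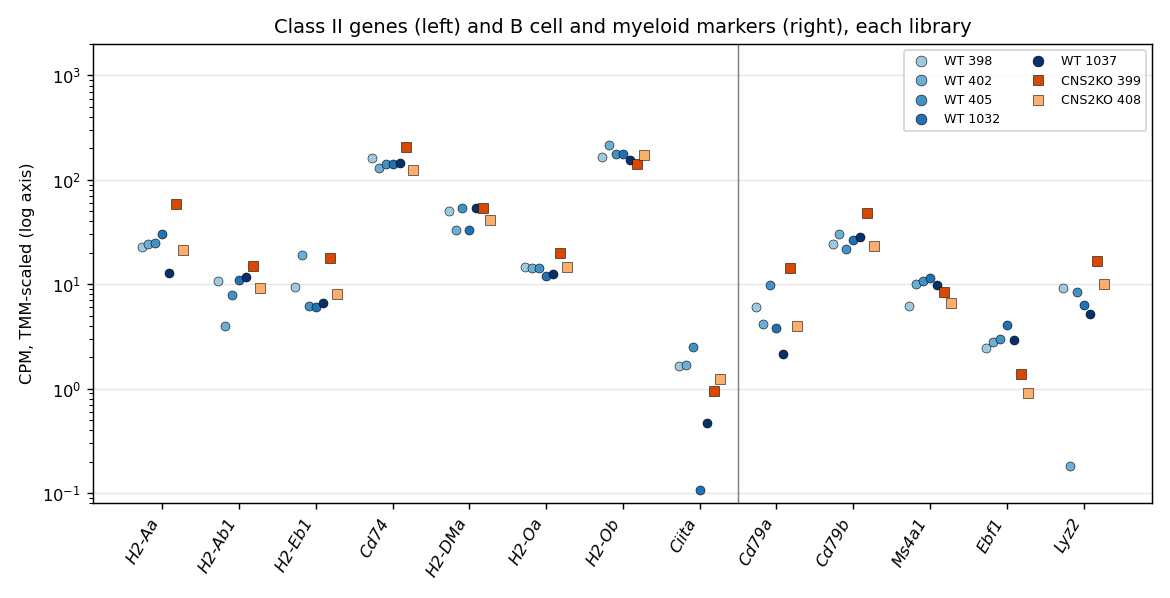
Level of 8 class II genes (left of the line) and of 4 B cell markers and the myeloid marker Lyz2 (right) in each library, in TMM-scaled CPM on a log axis; circles are WT and squares CNS2KO libraries. H2-Aa, Cd79a and Cd79b are highest in CNS2KO 399, at 58.3, 14.4 and 48.1 CPM, while H2-Ob lies within 141 to 215 CPM. Lyz2 does not stand for its list: of 8 tested dendritic and myeloid markers, 2 had positive and 6 negative fold changes.

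Since B cells are rich in class II, B cell markers outside the MHC were read beside these genes. Of 13 listed markers, 12 were measured, and their sum ranged from 56.4 to 70.9 CPM in WT and stood at 90.2 CPM in CNS2KO 399 and 48.0 CPM in CNS2KO 408. Cd79b alone gave 48.1 CPM of the sum in CNS2KO 399, and of the 11 markers tested 3 had positive and 8 negative fold changes (median -0.37). Cd79a, a signalling chain of the B cell receptor, stood at 6.05, 4.13, 9.77, 3.83 and 2.16 CPM in WT 398, 402, 405, 1032 and 1037, and at 14.4 and 4.02 CPM in CNS2KO 399 and 408. Cd79b stood at 21.9 to 30.2 CPM in WT, with 48.1 in CNS2KO 399 and 23.2 in CNS2KO 408. Both were highest in CNS2KO 399, as was H2-Aa. Ms4a1 (CD20) was not: it stood at 6.15 to 11.4 CPM in WT, with 8.36 in CNS2KO 399 and 6.55 in CNS2KO 408. The B cell transcription factor Ebf1 was lower in both CNS2KO libraries (1.37 and 0.908 CPM) than in any WT library (2.45 to 4.05 CPM). This held for 2 of the 11 tested markers and for 3% of all tested genes. Ebf1 had 19 to 75 reads per library and an unadjusted p of 0.113 by edgeR (adjusted p = 0.9999). Pax5, the defining B cell factor, had 0 reads in WT 402, WT 405, WT 1032 and CNS2KO 399. It had 145 reads (8.47 CPM) in WT 1037, the library with the lowest Cd79a and H2-Aa, and did not pass the filter. The libraries without Pax5 reads had 14639 to 15671 genes with any read, and the others had 16440 to 19206.

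Dendritic and myeloid markers, 11 of 11 measured, summed to 26.2 to 41.5 CPM in WT, 31.2 CPM in CNS2KO 399 and 33.9 CPM in CNS2KO 408. Itgax, a dendritic and myeloid marker, had 0 reads in WT 1032, WT 1037 and CNS2KO 399. It had at most 58 reads, in WT 402, with 38 in WT 405. Zbtb46, a dendritic cell factor of the same list, was read in every library, with 92 to 344 reads. The macrophage enzyme Lyz2 lay above every WT library in both CNS2KO libraries, as 3.76% of all tested genes did. It stood at 16.7 in CNS2KO 399 and 10.1 in CNS2KO 408 against a WT range of 0.182 to 9.26 CPM. Its unadjusted p was 0.175 by edgeR (adjusted p = 0.9999). Of the 8 markers tested, 2 had positive and 6 negative fold changes (median -0.57). CNS2KO 399 was also the highest library for the red blood cell transcript Hbb-b1, at 78.4 CPM against 1.23 to 12.5 CPM in WT. The part of B cells, dendritic and myeloid cells in the class II values was not tested.

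The class II genes did not keep a fixed proportion to each other or to Cd79a. The ratio of H2-Aa to H2-Ab1 reads ran from 1.10 in WT 1037 (219 and 199 reads) to 6.11 in WT 402 (403 and 66 reads), a 5.55-fold range. H2-Eb1 per H2-Ab1 ran from 0.554 to 4.73, an 8.53-fold range, with WT 402 again highest. Cd74 per Cd79a ran from 14.4 in CNS2KO 399 to 67.5 in WT 1037, and H2-Aa per Cd79a from 2.55 to 7.86. In class I, by contrast, H2-K1 per H2-D1 kept between 0.824 and 0.979, a 1.19-fold range, and H2-Q6 per H2-Q7 between 1.01 and 1.27. The class I genes have many more reads, so counting error weighs less on their ratios.

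**Figure D3:**
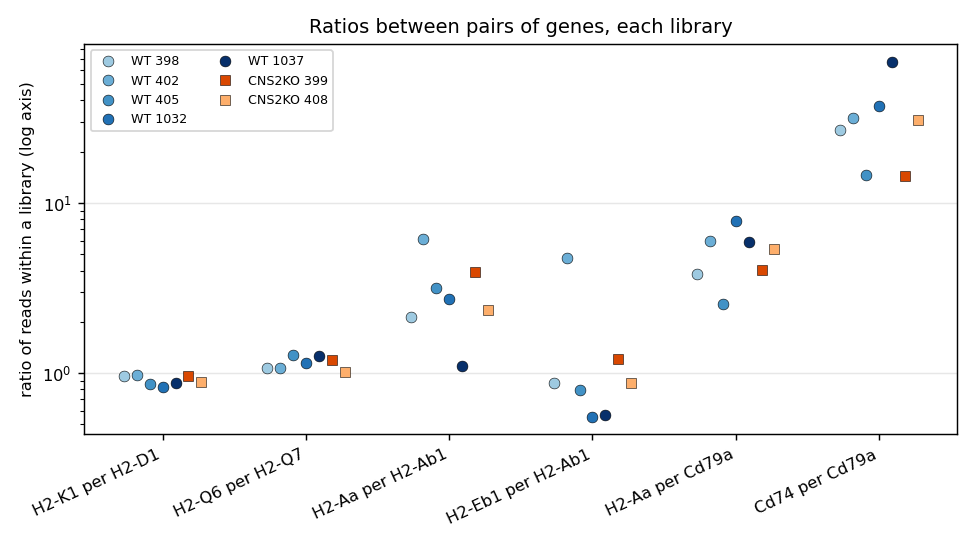
Ratio of reads between pairs of genes within each library, on a log axis; circles are WT and squares CNS2KO libraries. The class I pairs lie in narrow bands (0.824 to 0.979 for H2-K1 per H2-D1), and H2-Aa per H2-Ab1 spreads from 1.10 to 6.11.

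Over the 7 libraries, 4 relations of single class II genes with Cd79a were computed on log2(CPM + 0.5), and none passed after adjustment over the 4. H2-Aa had a Pearson's r of 0.82 (exact permutation p = 0.0256, adjusted p = 0.102) and a Spearman's rho of 0.61 (exact permutation p = 0.167, adjusted p = 0.663). Without CNS2KO 399 and WT 405, the libraries farthest from the median of Cd79a, r was 0.70. Cd74 had an r of 0.67 (exact permutation p = 0.0966, adjusted p = 0.193) and a rho of 0.32 (exact permutation p = 0.498, adjusted p = 0.663). Its r was 0.21 without those 2 libraries, so the relation rests on them. H2-Eb1 had an r of 0.39 (exact permutation p = 0.377, adjusted p = 0.503) and a rho of 0.43 (exact permutation p = 0.354, adjusted p = 0.663), and r was 0.36 without the 2. H2-Ab1 had an r of 0.23 (exact permutation p = 0.627, adjusted p = 0.627) and a rho of -0.07 (exact permutation p = 0.906, adjusted p = 0.906), with r at -0.18 without the 2. All 4 relations share the same libraries and the same Cd79a values. Cd79a had 37 to 305 reads per library. It was 1 of the 3 tested B cell markers with a positive fold change, where 8 had a negative one. Relations with other B cell markers were not computed, so these values hold for Cd79a alone.

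Among WT libraries the classical class I chains had a small spread for their level. The coefficient of variation (SD over the mean, n = 5) was 5.17% for H2-D1 and 9.60% for H2-K1, where tested genes within 2-fold of their levels had medians of 13.8% and 13.6%. B2m had 23.6%, against 14.0% for genes of like level, and Nlrc5 had 26.0%, against 14.4%. The helpers Cd74 (7.65%) and H2-Oa (9.17%) also had small spreads, where genes of like level had 16.2% and 30.7%. The class II chains H2-Aa (27.5%) and H2-Ab1 (35.1%) were near genes of like level (25.8% and 36.2%), and H2-Eb1 (58.1%) was above them (35.7%). Of the 37 tested members, 24 lay below the median of genes of like level: 13 of 19 class I, 4 of 6 supply and 5 of 10 class II genes, and both others. These are descriptions of 5 libraries, with no test.

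**Figure D4:**
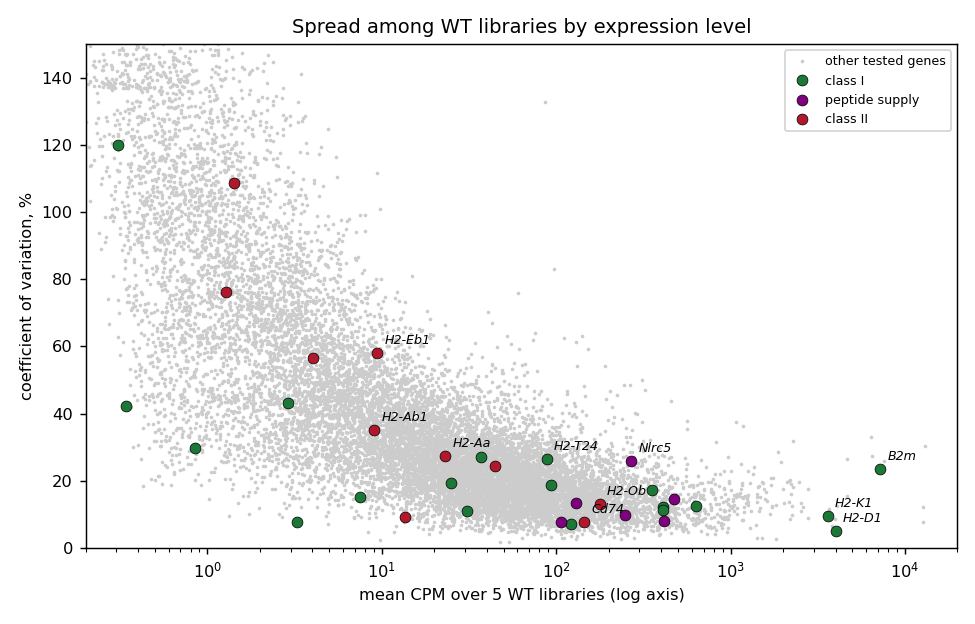
Coefficient of variation over the 5 WT libraries (percent) against mean CPM (log axis) for all tested genes, drawn up to 150%; coloured points are class I, peptide supply and class II members. H2-D1 and H2-K1 lie low for their level at 5.17% and 9.60%, and B2m and Nlrc5 lie higher, at 23.6% and 26.0%.

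The genotype comparison set CNS2KO against WT Treg cells at rest. Across all 14424 tested genes, edgeR's quasi-likelihood test called 0 (0%) at a Benjamini-Hochberg adjusted p under 0.05, and 361 (2.5%) were under 0.05 before adjustment; 1.54% of genes were so with a higher level in CNS2KO and 0.964% with a lower one. No member was among either: 0 of 37 tested members were called and 0 had an unadjusted p under 0.05. H2-D1 had a WT mean of 4010.4 ± 207 CPM (SD, n = 5) and a CNS2KO mean of 4142 ± 360.3 CPM (SD, n = 2), a log2 fold change (CNS2KO minus WT) of 0.05 (SE 0.12, 95% interval -0.21 to 0.31). H2-K1 had a WT mean of 3607 ± 346 CPM (SD, n = 5) and a CNS2KO mean of 3833 ± 538 CPM (SD, n = 2), a log2 fold change of 0.09 (SE 0.14, 95% interval -0.21 to 0.39). B2m had a log2 fold change of 0.26 (SE 0.20, 95% interval -0.17 to 0.70). For H2-D1 and H2-K1 the intervals exclude a change of 1.5-fold in either direction, and for B2m they do not exclude an increase of that size.

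Class I members had positive fold changes in 12 of 19, with a median log2 value of 0.08, and the peptide supply genes in 6 of 6, with a median of 0.18. Over all tested genes 47.4% were positive and the median was -0.03. The supply genes ranged only from 0.07 for Tap2 to 0.23 for Psmb10, with Nlrc5 at 0.20, Psmb8 at 0.19, Tap1 at 0.18 and Tapbp at 0.16. No single one passed the test, and all 6 share the same 7 libraries. Without CNS2KO 399 the class I median was -0.040 and without CNS2KO 408 it was 0.22, and Nlrc5 was at 0.49 and -0.16.

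Class II members had positive fold changes in 7 of 10, with a median of 0.20. H2-Aa had the smallest unadjusted p of all members, 0.063, and had a WT mean of 23.032 ± 6.33 CPM (SD, n = 5) and a CNS2KO mean of 39.9 ± 26.1 CPM (SD, n = 2), a log2 fold change of 0.79 (SE 0.39, 95% interval -0.05 to 1.63) with an adjusted p of 0.9999 by edgeR. The two-sided exact permutation test over 21 assignments gave p = 0.429, where 0.048 is the smallest it can give. The positive value rests on 1 library: without CNS2KO 399 the fold change of H2-Aa was -0.10, and without CNS2KO 408 it was 1.33. Cd74 went from -0.22 to 0.51 in the same way, H2-Eb1 from -0.23 to 0.93, and the class II median from -0.11 to 0.53. H2-Ob stood at -0.17, H2-DMa at 0.08 and Ciita at -0.23 (SE 1.27), the last with too few reads for a useful interval.

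**Figure D5:**
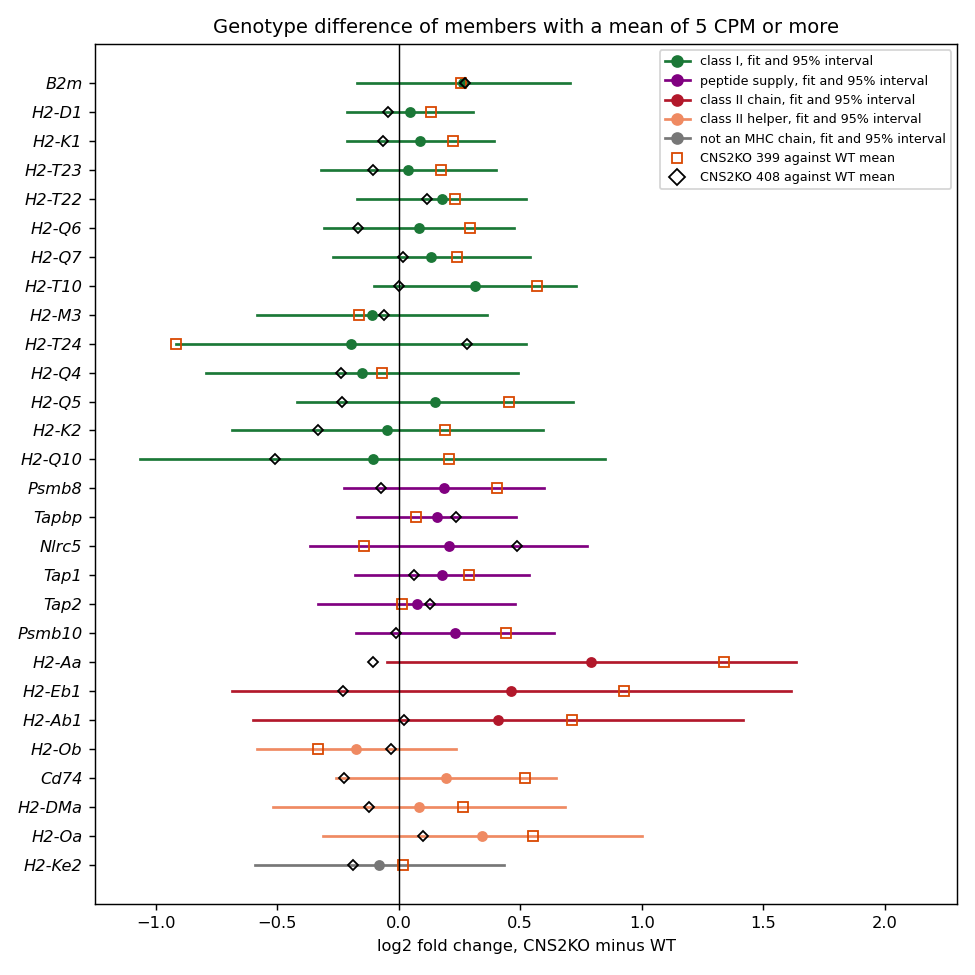
Log2 fold change, CNS2KO minus WT, of the 28 members with a mean of 5 CPM or more: filled points are edgeR's estimates, lines their 95% intervals, open squares and diamonds CNS2KO 399 and CNS2KO 408 each against the WT mean. All 28 intervals include 0, and CNS2KO 399 lies farthest to the right for H2-Aa.

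The 2 CNS2KO libraries differed from each other in many members. CNS2KO 399 lay above every WT library in 16 of 37 tested members (43.2%), against 20.1% of all tested genes, and below every WT library in 3 (H2-Ob, H2-Q2 and H2-T24), against 19.8%. The 16 were 9 class I genes, among them H2-D1, H2-K1, H2-Q6 and H2-T10, the supply genes Psmb8, Psmb10 and Tap1, and the class II genes H2-Aa, H2-Ab1, H2-Oa and Cd74. CNS2KO 408 lay above every WT library in 4 of 37 (Nlrc5, Tapbp, H2-Q1 and H2-M5), against 12.8% of all genes, and below in 2 (Cd74 and H2-Q10), against 9.48%. Against the WT mean alone, CNS2KO 399 was higher in 27 of 37 members (45% of all genes) and CNS2KO 408 in 16 of 37 (47.3% of all genes). This view of 1 library at a time was taken after the values were seen. Both CNS2KO libraries lay above every WT library in 2 members, H2-Q1 and H2-M5, where 3.76% of all tested genes did so, and both lay below in 0, where 3% did. H2-Q1 stood at 3.02 to 3.70 CPM in WT, with 5.57 in CNS2KO 399 and 4.06 in CNS2KO 408, and H2-M5 had 3 to 19 reads per library. Both have an adjusted p of 0.9999 by edgeR, and H2-Q1 shares 22.9% of its windows with other genes.

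Genes of the same pathway outside the members were tested in the same fit. Of 31 listed, 30 were measured and 28 tested, with 18 positive and 10 negative fold changes (median 0.09) and 0 called. Among the 6 most highly read were the loading complex member Pdia3 (log2 fold change 0.26), the chaperone calnexin, Canx (0.06), the interferon-induced factor Irf1 (0.21), cathepsin S, Ctss (0.39), and the proteasome activator Psme1 (0.16). Only Psme2, the partner of Psme1, had an unadjusted p under 0.05 in this list (log2 fold change 0.51, unadjusted p = 0.0313, adjusted p = 0.9999 by edgeR). It stood at 226 to 398 CPM in WT, with 497 in CNS2KO 399 and 413 in CNS2KO 408. Psme2 and Pdia3, 2 of the 28 tested, lay above every WT library in both CNS2KO libraries, where 3.76% of all tested genes did so. Fcgrt and Cd1d1, class I-like molecules, lay below every WT library in both, where 3% did. Fcgrt had 0 and 10 reads in CNS2KO 399 and 408, and 11 to 79 in WT. Psme2, Fcgrt and Cd1d1 were picked out after their values were seen.

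Interferon induces class I and the immunoproteasome, so its response genes were read beside them. Their sum, over 12 of 12 listed, was 3528 to 4295 CPM in WT, 4657 CPM in CNS2KO 399 and 5308 CPM in CNS2KO 408. Fold changes were positive in 12 of 12 (median 0.59), where 47.4% of all tested genes were positive. By edgeR 0 were called and 2 had an unadjusted p under 0.05, where 2.5% of all tested genes did. On log2(CPM + 0.5), their median difference from the WT mean was 0.13 in CNS2KO 399 and 0.81 in CNS2KO 408. In single WT libraries it ran from -0.18 to 0.33. Ifit3, which interferon of type I induces, stood at 68.2, 81.1, 72.2, 64.8 and 131 CPM in WT 398, 402, 405, 1032 and 1037, and at 53.9 and 256 CPM in CNS2KO 399 and 408. CNS2KO 408 and WT 1037 were its highest libraries and CNS2KO 399 its lowest. Of the 12, 3 genes, Iigp1, Gbp2 and Igtp, which encode interferon-induced GTPases, lay above every WT library in both CNS2KO libraries. Over all tested genes 3.76% did so. Iigp1 stood at 254 to 322 CPM in WT, with 415 in CNS2KO 399 and 566 in CNS2KO 408 (log2 fold change 0.78, unadjusted p = 0.000685, adjusted p = 0.9999 by edgeR). Gbp2 stood at 353 to 506 CPM in WT, with 656 in CNS2KO 399 and 566 in CNS2KO 408 (log2 fold change 0.54, unadjusted p = 0.0108, adjusted p = 0.9999 by edgeR), and Igtp at 614 to 754 CPM, with 937 in CNS2KO 399 and 791 in CNS2KO 408. These genes, Ifit3 and Irf1 were picked out after their values were seen. Among WT libraries, WT 1037 was the highest for H2-D1, H2-T23, H2-T22 and Psmb8 and the lowest for Tap1 and Nlrc5. CNS2KO 408 was the highest of all libraries for Nlrc5 and Tapbp and lay inside the WT range for H2-D1, H2-K1, Psmb8, Psmb10 and Tap1. Irf1 was highest in CNS2KO 399, at 534 CPM against 356 to 468 CPM in WT, as were Psmb8, Psmb10 and Tap1. The part of interferon in these values was not tested.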

How the data were processed

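RNA of sorted, unstimulated mouse Treg cells was amplified with a SMARTer kit and sequenced as Ion Proton libraries, per the labels' protocols. Raw counts of reads, 1 row for each gene symbol, are what the authors deposited. Per the submitters' processing notes, BWA, STAR and edgeR were used on build mm9; versions, annotation and counter are not given in the sources used here. Deposited log2 and signed-value tables were not used here. Of the count columns, 2 with the number 407 were left out, since they are identical (0 rows differ) and their genotype could not be told. The 5 counter summary rows stayed out of library sizes. Groups came from sample titles. Between used libraries, chi-square over its degrees of freedom was at least 31.6, so no pair agreed within sampling noise.

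With R 4.3.3 and edgeR 4.0.16, genes were kept by filterByExpr, scaled by TMM and compared by edgeR's quasi-likelihood test (two-sided; p-values adjusted by Benjamini-Hochberg over 14424 genes); CPM values are TMM-scaled. Each SE is the log2 fold change divided by the square root of F. Floors of 3 counts hold for counting error alone, as the labels name no molecular identifiers. The code was tested on simulated data. Exact permutation tests used absolute differences of mean log2(CPM + 0.5). Alternatives were other scalings, DESeq2 1.42.0, no filter, WT numbers of 3 digits only and each library left out. Named genes were the classical class I and class II chains, the peptide supply genes, their activators, Cd74, other members with a mean of 10 CPM or more, and the 6 most highly read related genes. Members and lists were chosen with earlier results of these data known. The values of 1 B cell marker and 1 related gene are not reported here. Lists got counts and medians, with no test.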

Additional observations from a re-analysis of the deposited data

Results flagged for a closer look

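Of the 37 tested members, each checked over 5 WT libraries, 1 had a library far from the others: H2-Eb1 stood at 18.9 CPM in WT 402, against 9.31 CPM in the next highest WT library. Chance gives about 1 in 20 such checks. The same library had the fewest reads of H2-Ab1 (66) and a Cd79a level of 4.13 CPM, within the range of the other WT libraries.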

How the results depend on the processing

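No member was called under any alternative run; the smallest adjusted p of a member was 0.239, in edgeR's fit without CNS2KO 408. The count of genes called over all genes was 0 in each alternative except 1: without a low-count filter 8 were called, none of them a member. With each library left out in turn, the class I median ranged from -0.040 to 0.22, the class II median from -0.11 to 0.53, the peptide supply median from 0.10 to 0.21 and the count of genes called stayed at 0; without WT 402 the class II median was 0.076. Under other scalings, DESeq2, no filter and WT numbers of 3 digits only, these medians moved by less than the spread between WT libraries; the cause of the moves was not tested. H2-Ke2 turned to 0.079 with WT numbers of 3 digits only. Of 28 members with a mean of 10 CPM or more or a role named in the text, 16 changed sign when 1 library was left out, 12 of them without CNS2KO 399 and 3 without CNS2KO 408. The ranges were -0.22 to 0.51 for Cd74, -0.52 to 0.16 for Ciita (positive without WT 405), -0.10 to 1.33 for H2-Aa, -0.040 to 0.13 for H2-D1, -0.12 to 0.26 for H2-DMa, -0.23 to 0.93 for H2-Eb1, -0.058 to 0.22 for H2-K1, -0.33 to 0.18 for H2-K2, -0.18 to 0.012 for H2-Ke2, -0.23 to 0.45 for H2-Q5, -0.16 to 0.29 for H2-Q6, -0.10 to 0.17 for H2-T23, -0.92 to 0.29 for H2-T24, -0.16 to 0.49 for Nlrc5, -0.0056 to 0.43 for Psmb10 and -0.067 to 0.40 for Psmb8. Where a CNS2KO library is left out, the other is assumed to vary like the WT libraries. No paired analysis was possible because the genotypes share 1 number only, 407, whose columns are identical. WT 1032 and WT 1037 carry longer numbers than the others, and the labels do not say whether that marks a batch. Depth limits Ciita, H2-DMb1, H2-T3, H2-M5, H2-Bl and H2-Ke6, which had at most 71 reads in any library. H2-Bl had 11 to 25 reads and H2-Ke6 0 to 39, and 62.9% of the 50-base windows of H2-Ke6 occur in another gene.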

Other observations

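The promoter letters did not separate read from unread class I genes in the case of CCAAT. Of the class I members with a promoter window, 10 of 13 that passed the filter held CCAAT, as did 10 of 10 that did not pass, among them H2-M1, H2-M10.1 and H2-M10.4, which had 0 reads in every library. The other motifs occurred in fewer genes. All 7 class I members with a mean over 300 CPM and a window held 1 of them: GGGGATTCC in H2-K1, H2-D1, H2-Q6 and H2-Q7, and GAAANNGAA in B2m, H2-T22 and H2-T23. Neither occurred in the 10 that did not pass. This grouping was made after the values were seen, the H2-Q, H2-K1 and H2-D1 promoters are related copies, and no test was made.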
